A study of Mus musculus with 10 samples.

Results

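The NF-kB pathway and the receptors that feed it were followed in lymphatic endothelial cells (LEC) of MT-ret melanomas, through 33 named genes. The genes were picked for their place in the pathway, with earlier results of these data known. They were 33 of the 23510 genes of the deposited table, and all 33 passed the filter on low counts that left 16240 genes for testing. LEC line the lymphatic vessels. They were sorted by flow cytometry from tumours grown from implanted fragments in 10 C57BL/6N mice, with 1 library per mouse from an input of 0.5 ng of RNA. IgG, the control, was injected into 5 mice and an antibody against angiopoietin-2 (anti-Ang2) into the other 5, by the intraperitoneal route, and tissue was taken 12 hours later. The question, going by the title of the series, is how tumour LEC respond to short-term loss of angiopoietin-2 activity. Angiopoietin-2 is secreted mainly by endothelium and binds Tie2.

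NF-kB is a family of dimeric transcription factors that are held in the cytoplasm by IkB proteins. Tumour necrosis factor (TNF) and related ligands bind receptors whose adaptors recruit TRAF proteins, cIAP ubiquitin ligases and the kinase RIPK1. These activate the IKK kinase complex, IkB is phosphorylated and degraded, and the freed dimers enter the nucleus. There they switch on inflammatory genes and also their own inhibitors, among them IkB-alpha (Nfkbia) and A20 (Tnfaip3), so that transcripts of these inhibitors are commonly read as a sign of NF-kB activity. A second, non-canonical branch runs from receptors such as the lymphotoxin beta receptor through the kinase NIK (Map3k14) to the subunits encoded by Nfkb2 and Relb. In endothelium NF-kB drives adhesion molecules and chemokines for leukocytes, and angiopoietin-2 is known to sensitise endothelial cells to TNF.

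Libraries held 38090933 to 83850341 gene counts. The summed CPM (counts scaled to library size with TMM factors) of 10 lymphatic endothelial markers ranged over 18716 to 22254 under IgG and 15683 to 20844 under anti-Ang2, all 10 being detected in every library. Of the 10, 0 passed as higher and 1 as lower by edgeR, 6 were at an unadjusted p under 0.05 and 2 were called by DESeq2. Over all tested genes these shares were 4.13%, 18.2% and, of genes given an adjusted p by DESeq2, 11.4%. The gene that passed was the chemokine gene Ccl21a, with a mean of 883 CPM under IgG and 379 CPM under anti-Ang2. Means of Lyve1 (4655 and 5646 CPM) and Reln (684 and 921 CPM) were higher under anti-Ang2. Those of the other markers were lower, among them Flt4 (3199 and 2338 CPM) and Mmrn1 (6658 and 5502 CPM). The sum of 12 melanoma cell markers ranged over 269 to 1862 under IgG and 1135 to 5580 under anti-Ang2, the highest being anti-Ang2 1, 2 and 3. Of the 12, 1 passed as higher and 0 as lower by edgeR, 9 were at an unadjusted p under 0.05 and 8 were called by DESeq2; the gene that passed by edgeR was Pmel, with a mean of 51.4 CPM under IgG and 250.3 CPM under anti-Ang2, and Gpr143 was at 0 in some libraries. That of 15 macrophage and monocyte markers was 53.8 to 209 and 74.6 to 296; 0 of the 13 tested passed by edgeR (5 at an unadjusted p under 0.05, 1 by DESeq2), and Adgre1, Cd163, Fcgr1, Itgam, Ms4a7 and Ptprc were at 0 in some libraries. Markers of T, NK and B cells summed to 5.85 to 15.5 and 3.20 to 10.1 CPM, and those of keratinocytes to 1.02 to 3.84 and 1.17 to 2.10 CPM. Those of 8 fibroblast genes summed to 189 to 911 and 204 to 732 CPM, with opposite moves inside the list. Means were higher under anti-Ang2 for Dcn (144 and 332 CPM) and Lum (1.98 and 3.63 CPM). They were lower for Col1a1 (91.9 and 22.6 CPM), Col1a2 (67.5 and 12.9 CPM), Col3a1 (127 and 41.2 CPM), Dpt, Fap and Pdgfra. Of the 6 tested, 0 passed by edgeR, 3 were at an unadjusted p under 0.05 and 0 were called by DESeq2. Markers of pericytes and smooth muscle summed to 38.7 to 183 and 94.4 to 343 CPM, most of which was Cspg4 under anti-Ang2. Cspg4 was highest in anti-Ang2 1, 2 and 3 (274, 203 and 231 CPM) and, within IgG, in IgG 2 and 4 (104 and 86.1 CPM). The melanoma marker sum was highest in the same libraries of each group, and the source of the Cspg4 reads was not tested. The mean of Cspg4 was 53.2 CPM under IgG and 172 CPM under anti-Ang2. The means of Acta2 (31.3 and 39.8 CPM) and Tagln (0.548 and 0.835 CPM) were also higher under anti-Ang2. Those of Rgs5 (7.83 and 3.29 CPM), Pdgfrb (8.15 and 4.69 CPM), Des (1.96 and 1.26 CPM) and Myh11 (1.02 and 0.874 CPM) were lower. Blood endothelial markers summed to 3301 to 5364 CPM under IgG and 2180 to 4486 CPM under anti-Ang2. Most of this was Plvap (mean 4022 CPM under IgG and 2216 CPM under anti-Ang2). Means were also lower under anti-Ang2 for Cd34 (198 and 166 CPM) and Vwf (68.4 and 51.9 CPM). They were higher for Emcn (175 and 180.2 CPM), Flt1 (146 and 178 CPM), Nrp1 (52.5 and 78.7 CPM), Sox17 and Ly6c1. Of the 8, 0 passed by edgeR, 1 was at an unadjusted p under 0.05 and 1 was called by DESeq2. Anti-Ang2 5 and anti-Ang2 4 stood apart from the other libraries, with the lowest quality weights (0.417 and 0.606, against 0.911 to 1.43). In such bulk samples, fewer cells of a type and less RNA per cell cannot be told apart.

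At 12 hours, no gene of the pathway core passed the test across all genes. Of the 33 genes, 0 were higher and 0 lower by edgeR at an adjusted p under 0.05, where 4.13% of all tested genes passed. At an unadjusted p under 0.05 there were 7 (21.2%), 2 with a positive and 5 with a negative log2 fold change, beside 18.2% of all tested genes. The groups did not overlap in 1 gene, Birc2, which is 3.03% of the 33, beside 6.10% of all tested genes. The median log2 fold change of the 33 was -0.02, beside 0.01 over all tested genes, and the median of the absolute values was 0.12, beside 0.21. The 95% interval of the change lay wholly within 2-fold in either direction for 30 of the 33, beside 61.1% of all tested genes, and within 1.5-fold for 22. The 3 genes with wider intervals were Relt, Il6 and Tnfaip2. The median SE of the log2 fold change was 0.135 in the 33, beside 0.200 over all tested genes. The genes were not matched for level, so these shares reflect the size of the errors as well as that of the changes.

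DESeq2, run as an alternative, called 5 of the 33 (15.2%), beside 11.4% of the genes to which it gave an adjusted p. These were the NIK gene Map3k14, Bcl3, the TNF receptor gene Tnfrsf1a and Birc2 with a lower level, and the IkB-beta gene Nfkbib with a higher level. In the authors' deposited table, 5 of the 33 had an adjusted p under 0.05, and all 5 were these genes. Per the submitters' processing notes those statistics also came from DESeq2, so this match is not independent of the result above. Map3k14 had a log2 fold change of -0.53 and an adjusted p of 0.00671 in the authors' deposited table, and a log2 fold change of -0.62 by DESeq2 here. These fold changes are not on the same scale. Relt was at -0.05 in the authors' deposited table and -1.22 here, at an unadjusted p of 0.173 by DESeq2 in both. By edgeR the same 5 genes had adjusted p of 0.0517 (Map3k14), 0.0756 (Nfkbib), 0.0838 (Bcl3), 0.0962 (Tnfrsf1a) and 0.101 (Birc2). They are therefore described below as values near the threshold and not as changes.

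**Figure D1:**
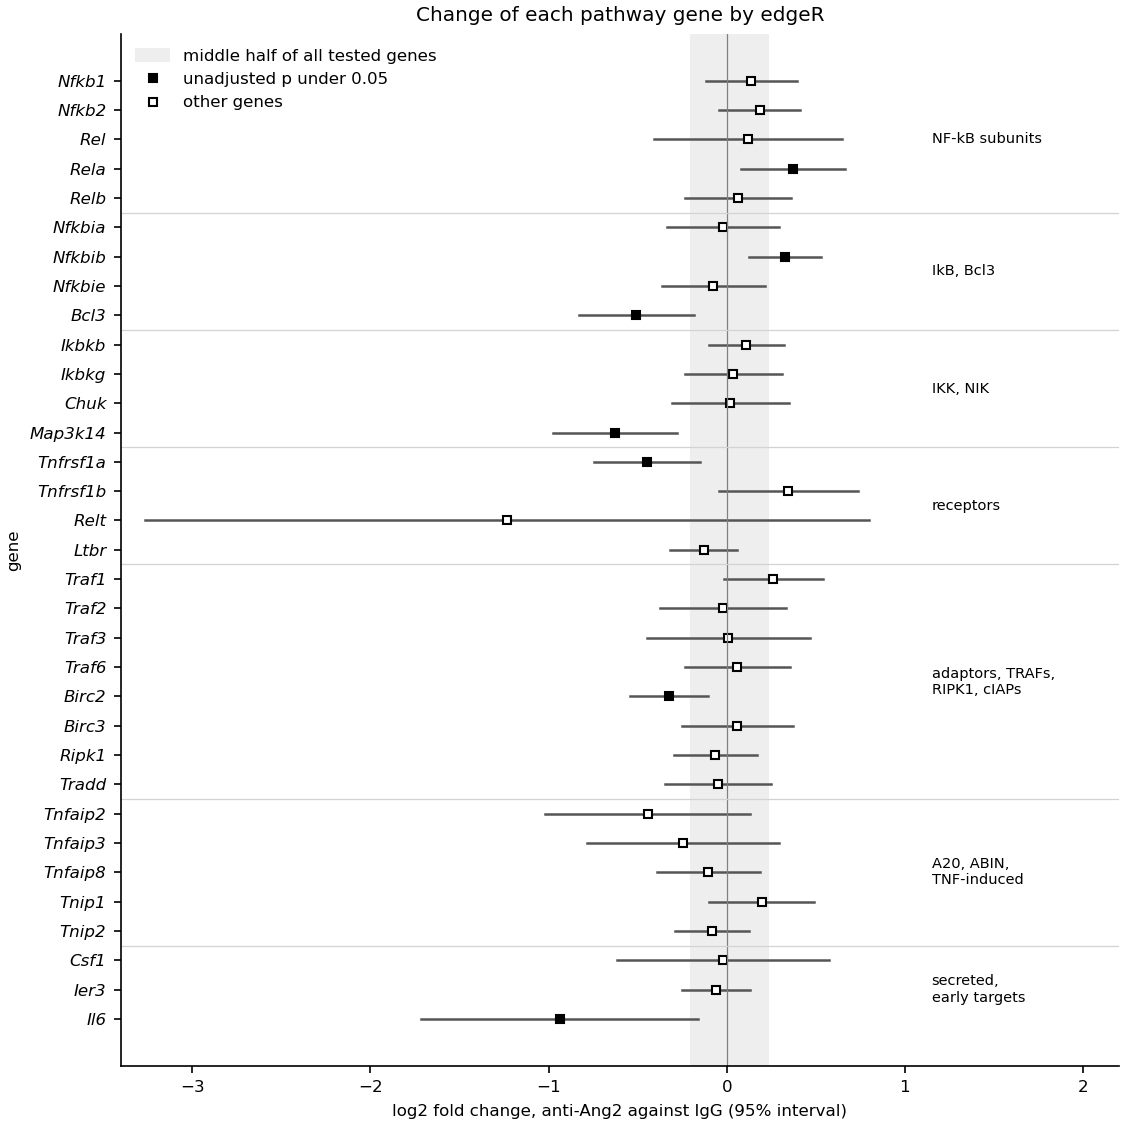
Log2 fold change of each of the 33 genes between anti-Ang2 and IgG libraries by edgeR (x axis; squares) with its 95% interval (bars), grouped by role (y axis); filled squares mark the 7 genes with an unadjusted p under 0.05, and the grey band holds the range from the lower to the upper quartile of all tested genes. Most intervals cross 0 and the widest, of Relt, runs from -3.26 to 0.80.

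Per transcript length, the feedback inhibitor stood at the top of the pathway in these cells. On the scale of deposited FPKM (fragments scaled to exon length and library size, which allows levels of different genes to be set side by side), Nfkbia had 285 ± 46.0 FPKM in IgG libraries (SD, n = 5), above 99.3% of tested genes. It was followed by Rela, which encodes the main activating subunit p65 (106 ± 5.37 FPKM), the stress-induced survival gene Ier3 (103 ± 5.82 FPKM), Tnfrsf1a (90.03 ± 13.4 FPKM), the lymphotoxin beta receptor gene Ltbr (66.2 ± 6.67 FPKM) and Bcl3 (47.0 ± 3.40 FPKM). Rela and Ier3 lay within each other's spread, while Nfkbia lay clear of both. At the lower end were Traf3 (2.97 ± 0.287 FPKM), Rel (1.98 ± 0.381 FPKM), Il6 (1.52 ± 0.481 FPKM) and the orphan receptor gene Relt (0.562 ± 0.366 FPKM), against a median of 4.16 FPKM over all tested genes. The first 5 and the last 3 genes of this order held the same places in the anti-Ang2 libraries.

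**Figure D2:**
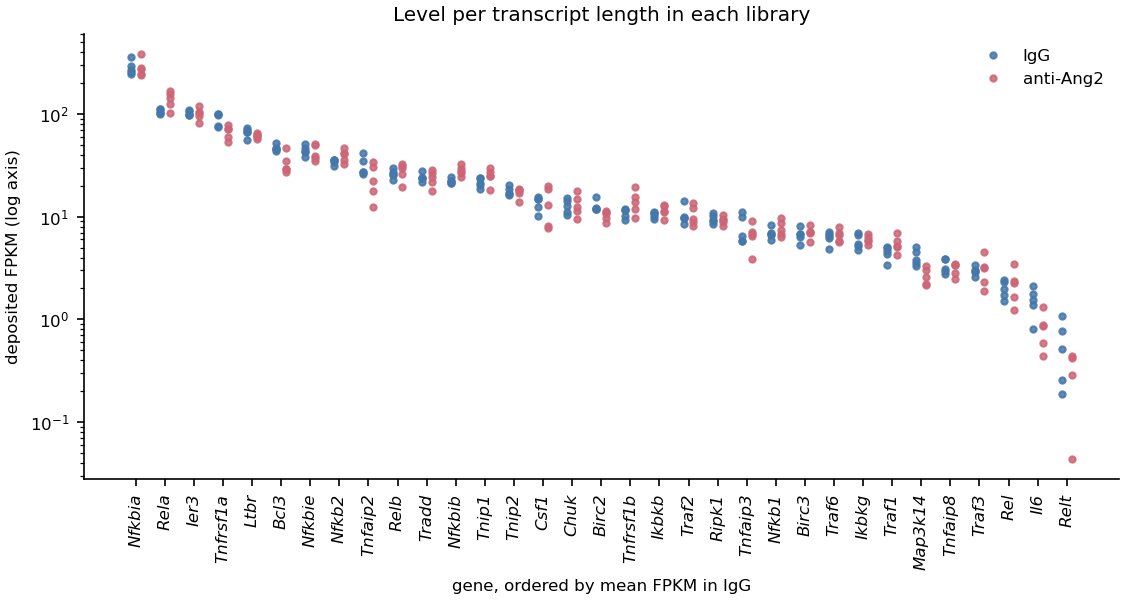
Deposited FPKM of each of the 33 genes (y axis, log scale) in the 5 IgG (blue) and 5 anti-Ang2 libraries (red), with genes ordered along the x axis by their mean in IgG; each point is 1 library. Nfkbia lies highest, at 285 ± 46.0 FPKM in IgG, and Relt lowest; 1 anti-Ang2 library with Relt at 0 cannot be drawn on the log axis.

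Among the receptors, the 2 TNF receptor genes had log2 fold changes on opposite sides of 0 with all 10 libraries, without passing the test. That of Tnfrsf1b was below 0 when only anti-Ang2 4 and 5, its lowest anti-Ang2 libraries, were kept. Tnfrsf1a encodes TNFR1, the widely expressed death domain receptor of TNF. It lay at 181, 249.8, 255, 247 and 201 CPM in IgG libraries 1 to 5 and at 192, 188, 178, 145 and 129 CPM in anti-Ang2 libraries 1 to 5. The anti-Ang2 values were the lower ones on the whole, but IgG 1, at 181 CPM, lay among them, so that the groups overlapped (log2 fold change -0.45 ± 0.14 (SE), adjusted p = 0.0962 by edgeR). The 95% interval of its log2 fold change was -0.75 to -0.15. Without anti-Ang2 4 and 5, the 2 lowest libraries, the log2 fold change was -0.30 ± 0.12 (adjusted p = 0.187), and with the melanoma marker sum as a covariate it was -0.71 ± 0.17 (adjusted p = 0.0866). Over all 20 alternatives its adjusted p was 0.0324 to 0.315, the lowest by DESeq2.

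Tnfrsf1b encodes TNFR2, which lacks a death domain and binds TRAF2. It lay at 33.5, 38.2, 43.7, 42.2 and 46.2 CPM in IgG libraries 1 to 5 and at 70.3, 60.7, 51.4, 42.0 and 34.6 CPM in anti-Ang2 libraries 1 to 5. Anti-Ang2 1, 2 and 3 lay above every IgG library, while anti-Ang2 4 and 5 lay among them (log2 fold change 0.35 ± 0.18 (SE), adjusted p = 0.345 by edgeR). Anti-Ang2 1, 2 and 3 were also the libraries with the highest melanoma marker sums, given above. Within IgG the highest sums were in IgG 2 and 4 (1753 and 1862 CPM). Tnfrsf1b was at 38.2 and 42.2 CPM there, beside 33.5 to 46.2 CPM over all 5 IgG libraries. With the melanoma marker sum as a covariate the log2 fold change of Tnfrsf1b was 0.03 ± 0.24 (adjusted p = 0.968). Without anti-Ang2 1, 2 and 3 it was -0.10 ± 0.15 (adjusted p = 0.798), and without anti-Ang2 4 and 5 it was 0.57 ± 0.13 (adjusted p = 0.0378). Anti-Ang2 1, 2 and 3 held the highest values of Tnfrsf1b in their group and anti-Ang2 4 and 5 the lowest. The direction of both shifts was therefore fixed by the choice of libraries. Over all 20 alternatives the adjusted p of Tnfrsf1b was 0.0378 to 0.968.

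The balance of both receptors within each library separated the groups. The ratio of Tnfrsf1a to Tnfrsf1b FPKM was 7.97, 9.64, 8.60, 8.63 and 6.40 in IgG libraries 1 to 5 and 4.03, 4.57, 5.11, 5.08 and 5.48 in anti-Ang2 libraries 1 to 5. Its mean was 8.25 ± 1.19 under IgG and 4.85 ± 0.562 under anti-Ang2 (SD, n = 5 each). Every anti-Ang2 library lay below every IgG library, also anti-Ang2 4 and 5. This ratio was chosen after the values of both genes were seen, among 7 ratios of pathway genes computed, and was not tested; the groups overlapped in the other 6.

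Ltbr, whose product starts the non-canonical branch, was in the same range in both groups, 123 to 168 CPM under IgG and 134 to 149 CPM under anti-Ang2 (log2 fold change -0.13, 95% interval -0.32 to 0.06, adjusted p = 0.488 by edgeR). Relt, an orphan member of the TNF receptor family, had the lowest level of the 33, at 0.803, 3.43, 0.607, 2.43 and 1.71 CPM in IgG libraries 1 to 5 and at 0.888, 1.39, 1.40, 0.133 and 0 CPM in anti-Ang2 libraries 1 to 5. Its values spread as widely within IgG as between the groups (log2 fold change -1.23 ± 0.93 (SE), adjusted p = 0.548 by edgeR). Of the ligands of these receptors, Tnf itself lay at 0 to 1.90 CPM under IgG and 0.734 to 13.1 CPM under anti-Ang2, the highest by far being anti-Ang2 3, and Ltb, the membrane part of the lymphotoxin ligand, at 5.66 to 19.6 CPM under IgG and 10.1 to 24.4 CPM under anti-Ang2. Lta did not pass the filter on low counts.

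**Figure D3:**
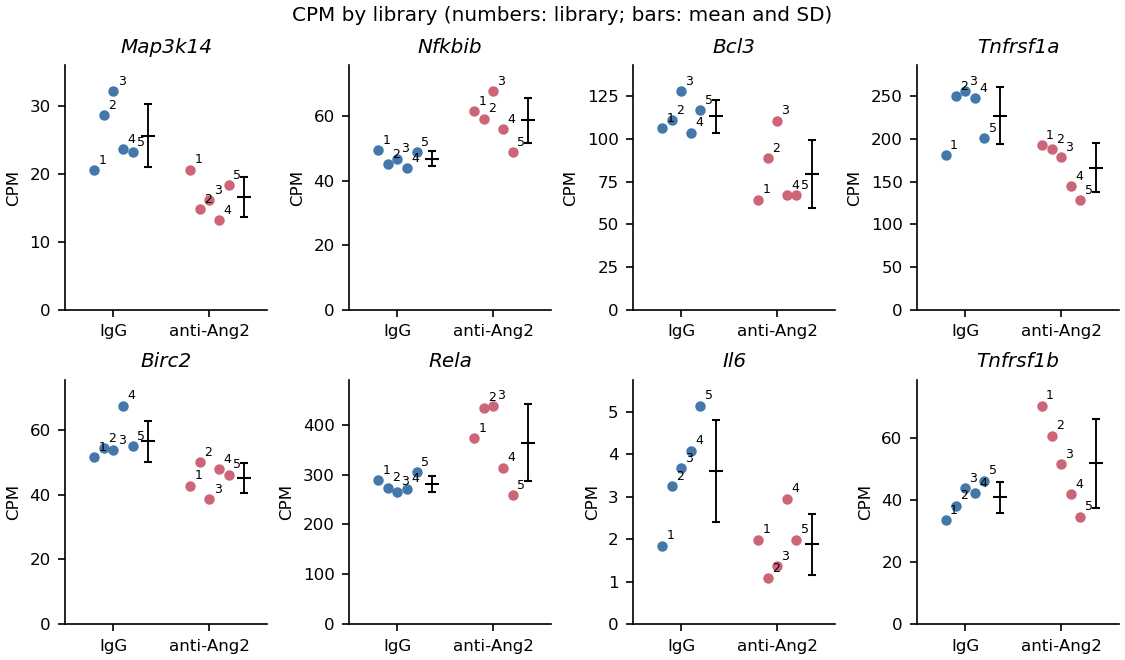
CPM (y axis) of 8 genes in each IgG (blue) and anti-Ang2 library (red), with the library number beside each point and the mean and SD of each group as a black bar (n = 5); shown are the 7 genes with an unadjusted p under 0.05 and Tnfrsf1b. Birc2 is the gene whose groups do not overlap; Rela and Tnfrsf1b are high in anti-Ang2 1, 2 and 3 and within or near the IgG range in anti-Ang2 4 and 5.

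In the layer of adaptors, TRAF proteins and ubiquitin ligases, 8 genes, the values were close to the controls. Birc2, which encodes the ubiquitin ligase cIAP1, lay at 51.6, 54.4, 53.8, 67.5 and 54.9 CPM in IgG libraries 1 to 5 and at 42.8, 50.1, 38.6, 47.9 and 46.2 CPM in anti-Ang2 libraries 1 to 5. Every anti-Ang2 library lay below every IgG library by a small margin (log2 fold change -0.32 ± 0.10 (SE), adjusted p = 0.101 by edgeR, 95% interval -0.54 to -0.10). Its close relative Birc3 (cIAP2), itself an NF-kB target, lay at 24.9 to 38.8 CPM under IgG and 26.5 to 42.3 CPM under anti-Ang2 (log2 fold change 0.06, 95% interval -0.25 to 0.37). Both genes lie side by side on chromosome 9 of mm10, Birc2 from 7818227 to 7837064 and Birc3 from 7848699 to 7873186, both on the minus strand. Birc2 had 67.5 CPM in IgG 4, which stood off from the other 4 IgG libraries. Over all 20 alternatives its log2 fold change was -0.38 to -0.24 (adjusted p 0.0368 to 0.436).

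The adaptor gene Tradd, which links TNFR1 to RIPK1 and TRAF2, had a log2 fold change of -0.05 (95% interval -0.34 to 0.25), and Ripk1 one of -0.06 (-0.30 to 0.17). Among the TRAF genes, Traf2, which brings the cIAP proteins to the receptor, was at -0.02 (-0.37 to 0.33). Traf3, which keeps NIK low in resting cells, was at 0.01 (-0.45 to 0.47), and Traf6, used by Toll-like and interleukin 1 receptors, at 0.06 (-0.23 to 0.35). Traf1, an NF-kB target, was at 0.26 (-0.02 to 0.54, adjusted p = 0.312 by edgeR), with anti-Ang2 5 the highest at 57.0 CPM. For all 8 genes of this layer the 95% interval lay within 1.5-fold. Traf3 had the most uneven anti-Ang2 libraries of the 8, from 12.8 CPM in anti-Ang2 5 to 31.8 CPM in anti-Ang2 3.

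At the kinase layer, Map3k14 came nearest to the threshold of all 33 genes, and the IKK genes had intervals that spanned 0. Map3k14 encodes NIK, the kinase that starts processing of the Nfkb2 product. Map3k14 (ENSMUSG00000020941.7) spans chr11:103219762-103267472 (minus strand) in mm10, a span that holds exons, introns and untranslated regions. It lay at 20.6, 28.8, 32.2, 23.7 and 23.2 CPM in IgG libraries 1 to 5 and at 20.7, 14.8, 16.2, 13.2 and 18.4 CPM in anti-Ang2 libraries 1 to 5. The 4 anti-Ang2 libraries other than anti-Ang2 1 lay below every IgG library, and anti-Ang2 1 was just above IgG 1, the lowest control. The mean was 25.7 ± 4.69 CPM under IgG and 16.7 ± 2.93 CPM under anti-Ang2 (SD, n = 5 each), and the groups overlapped by that library alone (log2 fold change -0.63 ± 0.16 (SE), adjusted p = 0.0517 by edgeR, 95% interval -0.98 to -0.28).

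Map3k14 passed by DESeq2 (-0.62 ± 0.17, adjusted p = 0.00560), by limma-voom (-0.65 ± 0.16, adjusted p = 0.0393) and without IgG 1 (-0.70 ± 0.16, adjusted p = 0.0396) or anti-Ang2 1 (-0.72 ± 0.16, adjusted p = 0.0431). With the melanoma sum as a covariate it was -0.64 ± 0.23 (adjusted p = 0.263), and with the macrophage sum -0.55 ± 0.20 (adjusted p = 0.286). Over all 20 alternatives the adjusted p was 0.00560 to 0.286, and the log2 fold change was negative in each. Exons of the neighbouring gene 1700028N14Rik cover 2.06% of its exon bases.

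The IKK complex consists of 2 kinases and a scaffold. Chuk, which encodes IKK-alpha, had a log2 fold change of 0.02 (95% interval -0.31 to 0.35), Ikbkb, for IKK-beta, one of 0.11 (-0.10 to 0.32), and Ikbkg, for the scaffold NEMO, one of 0.04 (-0.23 to 0.31). Chuk ranged over 52.3 to 72.8 CPM under IgG and 49.2 to 84.9 CPM under anti-Ang2, Ikbkb over 174 to 214 CPM under IgG and 171 to 239 CPM under anti-Ang2 and Ikbkg over 38.8 to 55.6 CPM under IgG and 40.0 to 52.7 CPM under anti-Ang2. In each of the 3 genes the groups overlapped.

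Of the inhibitors in the cytoplasm, the transcript of the inducible one differed little between the groups and that of IkB-beta lay near the threshold. Nfkbia encodes IkB-alpha, which NF-kB induces within minutes and which ends the response. Nfkbia (ENSMUSG00000021025.7) spans chr12:55489410-55492647 (minus strand) in mm10. Nfkbia lay at 439, 395, 556, 369.6 and 426 CPM in IgG libraries 1 to 5 and at 364, 392, 583, 414 and 402 CPM in anti-Ang2 libraries 1 to 5. The highest values, anti-Ang2 3 and IgG 3, came from different groups, and the means were 437 ± 71.9 CPM under IgG and 431 ± 87.1 CPM under anti-Ang2 (SD, n = 5 each). Its log2 fold change was -0.02 ± 0.14 (SE), adjusted p = 0.964 by edgeR, with a 95% interval of -0.34 to 0.30, so that changes beyond about 1.23-fold up or to below 0.792 of the control lay outside it.

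Nfkbib encodes IkB-beta, an inhibitor with slower turnover. It lay at 49.4, 45.1, 46.9, 43.9 and 48.9 CPM in IgG libraries 1 to 5 and at 61.6, 59.2, 67.6, 55.9 and 49.0 CPM in anti-Ang2 libraries 1 to 5. Anti-Ang2 1 to 4 lay above every IgG library and anti-Ang2 5 just below the highest of them (log2 fold change 0.33 ± 0.09 (SE), adjusted p = 0.0756 by edgeR, 95% interval 0.12 to 0.53). The log2 fold change was 0.38 ± 0.08 (adjusted p = 0.0244) without anti-Ang2 5 and 0.26 ± 0.14 (adjusted p = 0.460) with the melanoma sum in the model, and its adjusted p over all 20 alternatives was 0.0120 to 0.522. Nfkbie, for IkB-epsilon, was at 90.4 to 120.3 CPM under IgG and 79.0 to 122 CPM under anti-Ang2 (log2 fold change -0.07, 95% interval -0.37 to 0.22).

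Bcl3 encodes an IkB-like protein that works in the nucleus as a partner of p50 and p52 dimers. It lay at 106, 111, 128, 104 and 117 CPM in IgG libraries 1 to 5 and at 64.5, 88.6, 111, 67.2 and 67.1 CPM in anti-Ang2 libraries 1 to 5. The 4 anti-Ang2 libraries other than anti-Ang2 3 lay below every IgG library, while anti-Ang2 3 lay among the controls (log2 fold change -0.51 ± 0.15 (SE), adjusted p = 0.0838 by edgeR, 95% interval -0.83 to -0.18). Without anti-Ang2 3, the highest of its group, the log2 fold change was -0.65 ± 0.11 (adjusted p = 0.0144). Without anti-Ang2 1, 2 and 3 it was -0.76 ± 0.11 (adjusted p = 0.0351), and without anti-Ang2 4 and 5 it was -0.38 ± 0.16 (adjusted p = 0.192). Over all 20 alternatives the adjusted p was 0.0144 to 0.308. Exons of the antisense gene Gm16175 cover 6.51% of its exon bases, and the library kit does not mark strand.

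All 5 subunit genes had a log2 fold change above 0 by edgeR (Nfkb1, Rel and Relb changed sign under 1 or more alternatives), and 0 of the 5 passed by edgeR at an adjusted p under 0.05, with 1, Rela, at an unadjusted p under 0.05 and 0 by DESeq2. Rela lay at 289.7, 274, 266, 272 and 305 CPM in IgG libraries 1 to 5 and at 374, 435, 438, 314 and 259 CPM in anti-Ang2 libraries 1 to 5. Anti-Ang2 1 to 4 lay above every IgG library and anti-Ang2 5 below every one (log2 fold change 0.37 ± 0.13 (SE), adjusted p = 0.159 by edgeR, 95% interval 0.08 to 0.67). The log2 fold change was 0.47 ± 0.10 (adjusted p = 0.0289) without anti-Ang2 5, 0.55 ± 0.08 (adjusted p = 0.00786) without anti-Ang2 4 and 5, 0.02 ± 0.10 (adjusted p = 0.955) without anti-Ang2 1, 2 and 3, and 0.15 ± 0.18 (adjusted p = 0.790) with the melanoma sum in the model. Rela was higher in anti-Ang2 1, 2 and 3 than in anti-Ang2 4 and 5, so leaving out either set moved the value in a direction fixed in advance. Over all 20 alternatives the adjusted p of Rela was 0.00786 to 0.955. The 3 anti-Ang2 libraries with the highest Rela were those with the highest melanoma marker sums. Within IgG the highest sums were in IgG 2 and 4 (1753 and 1862 CPM). Rela was at 274 and 272 CPM there, beside 266 to 305 CPM over all 5 IgG libraries. The source of the Rela reads was not tested.

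Nfkb1, the source of p50, was at 70.3 to 95.4 CPM under IgG and 73.7 to 109.7 CPM under anti-Ang2 (log2 fold change 0.14, 95% interval -0.11 to 0.39), and Rel, for the c-Rel subunit best known from lymphocytes, at 10.9 to 17.6 CPM under IgG and 9.42 to 24.0 CPM under anti-Ang2 (0.12, -0.41 to 0.65). In the non-canonical branch, Nfkb2, the source of p52, was at 103 to 115 CPM under IgG and 101 to 149 CPM under anti-Ang2 (0.18, -0.04 to 0.41), and Relb at 88.9 to 109.5 CPM under IgG and 70.3 to 118 CPM under anti-Ang2 (0.06, -0.23 to 0.36). The ratio of summed Nfkb2 and Relb FPKM to summed Nfkb1 and Rela FPKM was 0.536 ± 0.0560 under IgG and 0.461 ± 0.0584 under anti-Ang2 (SD, n = 5 each), with overlapping groups. Exons of other genes cover 6.52% of the exon bases of Nfkb2 (Psd, antisense) and 1.94% of those of Nfkbib (Sirt2, antisense), 9.01% of those of Ripk1 and 5.15% of those of Ikbkg (G6pdx, antisense). Relb and Nfkb2 were both lowest in anti-Ang2 5.

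**Figure D4:**
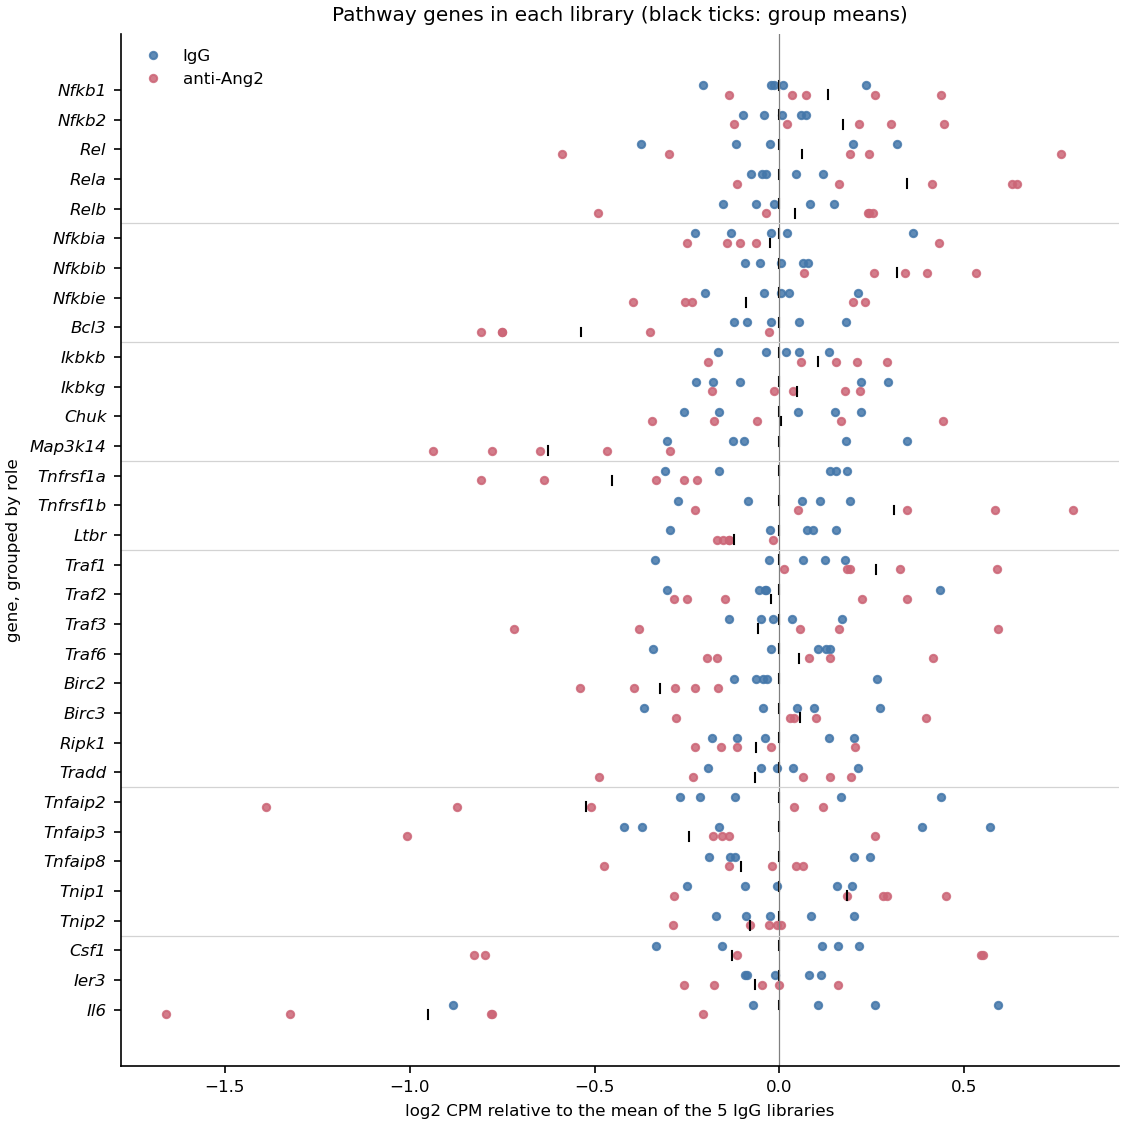
CPM of 32 of the 33 genes in each library, as log2 of the CPM relative to the mean log2 CPM of the 5 IgG libraries (x axis), with genes grouped by role (y axis), IgG libraries in blue, anti-Ang2 libraries in red and group means as black ticks; Relt, at 0 CPM in 1 library, is not drawn. The 5 anti-Ang2 points of most genes lie around 0 and spread more widely than the IgG points. Of the genes drawn, the coefficient of variation of CPM under anti-Ang2 is largest in Csf1 (44.9%) and Tnfaip2 (40.5%).

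The genes that NF-kB itself induces commonly carry binding sites in their promoters, and these sequences are shown because the same genes serve as the readout of the pathway. The NF-kB consensus (the kB motif) of 10 bases was searched on both strands of RefSeq promoter windows, from 250 bases before to 50 after the start of a gene (GRCm38.p6, the assembly of mm10). A window was found for 28 of the 33 genes by symbol, and 12 of the 28 held at least 1 match. By window, 38.9% of 36 windows held a match, beside 8.46% of all 32851 windows. Matches can overlap one another where a site is symmetric, as in Tnip1, Nfkb2 and Rel. In the following 30-base stretches the match is in capitals, and each is written 5′ to 3′ on the strand of its gene.
Nfkbia: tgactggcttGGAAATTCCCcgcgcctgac
Nfkbie: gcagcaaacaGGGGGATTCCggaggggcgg
Nfkb2: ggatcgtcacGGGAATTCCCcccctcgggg
Rel: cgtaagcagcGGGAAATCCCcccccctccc
Tnfaip3: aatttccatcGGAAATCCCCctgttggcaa
Tnip1: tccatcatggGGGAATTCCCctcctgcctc
Bcl3: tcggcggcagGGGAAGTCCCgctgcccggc
Il6: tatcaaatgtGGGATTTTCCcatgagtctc

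The stretch of Nfkbia is chr12:55492657-55492686 (minus strand), with the first base of the match 29 bases before the start. That of Nfkbie is chr17:45555584-45555613 (plus strand), that of Nfkb2 chr19:46304688-46304717 (plus) and that of Rel chr11:23771042-23771071 (minus). That of Tnfaip3 is chr10:19015403-19015432 (minus), that of Tnip1 chr11:54962978-54963007 (minus) and that of Il6 chr5:30013060-30013089 (plus). In Bcl3 the match begins at base 3 of the transcribed region, at chr7:19822734-19822763 (minus). The other 4 genes with a match were Csf1, Ier3, Tnfaip2 and Traf3. A match describes the letters of the window and was not tested for binding. The 12 genes with a match had log2 fold changes from -0.94 (Il6) to 0.20 (Tnip1), with a median of -0.04, beside 0.02 over the 1377 tested genes with a match. By edgeR 0 of the 12 passed (2, Bcl3 and Il6, at an unadjusted p under 0.05; 1, Bcl3, by DESeq2).

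The negative regulator A20 and its binding partners had intervals that spanned 0. Tnfaip3 encodes A20, which edits ubiquitin chains on RIPK1 and closes the signal. It lay at 39.3, 40.7, 78.2, 68.7 and 47.0 CPM in IgG libraries 1 to 5 and at 46.5, 47.9, 63.0, 47.2 and 26.2 CPM in anti-Ang2 libraries 1 to 5. IgG 3 and 4 and anti-Ang2 3 were high, anti-Ang2 5 was the lowest, and the groups overlapped (log2 fold change -0.25 ± 0.25 (SE), adjusted p = 0.683 by edgeR, 95% interval -0.78 to 0.29). Tnip1 and Tnip2 encode the A20-binding proteins ABIN1 and ABIN2. Tnip1 was at 62.2 to 84.7 CPM under IgG and 60.7 to 101 CPM under anti-Ang2 (log2 fold change 0.20, 95% interval -0.10 to 0.49) and Tnip2 at 41.1 to 53.2 CPM under IgG and 37.9 to 46.4 CPM under anti-Ang2 (-0.08, -0.29 to 0.12).

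Tnfaip2, a TNF-induced gene of endothelium, lay at 129.7, 169, 204, 125 and 138 CPM in IgG libraries 1 to 5 and at 106, 155, 163, 82.2 and 57.5 CPM in anti-Ang2 libraries 1 to 5. Anti-Ang2 1, 4 and 5 were below every control, and anti-Ang2 2 and 3 lay among the controls (log2 fold change -0.44 ± 0.26 (SE), adjusted p = 0.426 by edgeR, 95% interval -1.02 to 0.13). Without anti-Ang2 4 and 5 the log2 fold change was -0.13 ± 0.19 (adjusted p = 0.762), and without anti-Ang2 1, 2 and 3 it was -1.14 ± 0.23 (adjusted p = 0.0623). Anti-Ang2 4 and 5 held the lowest values of Tnfaip2, so the direction of both shifts was fixed by the choice of libraries. Tnfaip8, for an inhibitor of apoptosis, was at 28.7 to 38.8 CPM under IgG and 23.6 to 34.2 CPM under anti-Ang2 (-0.10, -0.39 to 0.18). Exons of an opposite-strand gene cover 12.7% of the exon bases of Tnfaip8.

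The secreted targets were uneven between libraries. Il6, the gene of interleukin 6, was rare and lay at 1.85, 3.25, 3.67, 4.08 and 5.14 CPM in IgG libraries 1 to 5 and at 1.99, 1.08, 1.36, 2.95 and 1.99 CPM in anti-Ang2 libraries 1 to 5. Anti-Ang2 2 and 3 lay below every control and the other anti-Ang2 libraries among them (log2 fold change -0.94 ± 0.35 (SE), adjusted p = 0.179 by edgeR, 95% interval -1.72 to -0.16). Csf1, the gene of the macrophage growth factor M-CSF, lay at 62.0, 77.1, 80.1, 74.9 and 54.8 CPM in IgG libraries 1 to 5 and at 38.9, 101, 101, 39.8 and 63.8 CPM in anti-Ang2 libraries 1 to 5. Anti-Ang2 2 and 3 were the highest of all 10 libraries and anti-Ang2 1 and 4 the lowest, so that Csf1 was far more uneven under anti-Ang2 (coefficient of variation 44.9%) than under IgG (15.6%), while the log2 fold change was -0.02 (95% interval -0.61 to 0.58). Ier3, an immediate early gene that counters TNF-induced death, was the steadiest of these, at 106 to 122 CPM under IgG and 94.6 to 126 CPM under anti-Ang2 (-0.06, -0.25 to 0.13).

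The 33 genes, like tested genes in general, varied more between anti-Ang2 than between IgG libraries. The coefficient of variation was larger in anti-Ang2 for 26 of the 33, beside 59.8% of all tested genes, and its median was 17.8% in anti-Ang2 and 12.4% in IgG, beside 22.3% and 18.5% over all tested genes. Anti-Ang2 5 was the lowest of all 10 libraries for 12 genes: Nfkbie, Nfkb2, Rela, Relb, Tnfaip2, Tnfaip3, Tnfaip8, Tnip1, Tnfrsf1a, Traf3, Relt and Tradd. Anti-Ang2 3 was the highest for 7, including Nfkbia, Nfkbib, Nfkb2, Rela and Tnip1, and IgG 3 was the highest for another 7, including Tnfaip2, Tnfaip3, Tnfrsf1a and Bcl3. Anti-Ang2 5 held the lowest value of its group in Nfkbib, Rela and Tnfrsf1b. Without anti-Ang2 5, Nfkbib and Rela passed the test (2 of 33), as did Tnfrsf1b with them without anti-Ang2 4 and 5 (3 of 33). The number called higher over all genes was also larger in both of these fits, with the counts given below.

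Beyond the 33, a wider list of 124 pathway genes held 3 receptors and 1 scaffold that passed the test. Of its 108 tested genes, 1 rose and 3 fell, beside 4.13% over all tested genes, with a median log2 fold change of 0.02. Tnfrsf11a encodes RANK, the receptor of RANK ligand, which drives both branches of NF-kB. It lay at 159, 204, 235, 195 and 206 CPM in IgG libraries 1 to 5 and at 82.5, 98.4, 87.1, 114 and 96.4 CPM in anti-Ang2 libraries 1 to 5. Every anti-Ang2 library was below every control, and the mean fell from 199.8 ± 27.5 to 95.7 ± 12.2 CPM (SD, n = 5 each; log2 fold change -1.06 ± 0.12 (SE), adjusted p = 0.00100 by edgeR). It passed under each of the 20 alternatives, with an adjusted p of at most 0.0403. The log2 fold change was -0.94 ± 0.15 (adjusted p = 0.0261) with the melanoma sum and -0.92 ± 0.12 (adjusted p = 0.0134) with the macrophage sum in the model. Tnfrsf11a (ENSMUSG00000026321.7) spans chr1:105780718-105847981 (plus strand) in mm10.

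Cd40, the gene of the receptor that engages T cells through CD40 ligand and signals through TRAF proteins, fell. It lay at 52.0, 47.8, 57.2, 45.5 and 38.1 CPM in IgG libraries 1 to 5 and at 27.8, 33.3, 33.5, 32.4 and 28.0 CPM in anti-Ang2 libraries 1 to 5. The groups did not overlap (log2 fold change -0.64 ± 0.12 (SE), adjusted p = 0.0106 by edgeR). It missed the threshold with the melanoma sum in the model, at -0.56 ± 0.17 (adjusted p = 0.177), and without anti-Ang2 1, 2 and 3, at -0.68 ± 0.17 (adjusted p = 0.0993), but not with the macrophage sum, at -0.71 ± 0.14 (adjusted p = 0.0424). Card10 encodes CARMA3, the scaffold that joins G protein-coupled receptors to BCL10, MALT1 and IKK outside lymphocytes. It lay at 236, 338, 336, 289 and 357 CPM in IgG libraries 1 to 5 and at 203, 221, 209, 184 and 178 CPM in anti-Ang2 libraries 1 to 5, again without overlap (log2 fold change -0.64 ± 0.12 (SE), adjusted p = 0.00944 by edgeR). It missed the threshold with the melanoma sum (-0.74 ± 0.16, adjusted p = 0.0720), with the macrophage sum (-0.53 ± 0.14, adjusted p = 0.117) and without anti-Ang2 1, 2 and 3 (-0.79 ± 0.16, adjusted p = 0.0613). The partner genes Bcl10 (log2 fold change 0.23, adjusted p = 0.0733 by edgeR) and Malt1 (0.14, adjusted p = 0.632 by edgeR), chosen after their values were seen, did not pass.

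Tnfrsf8, the gene of CD30, rose from a low level. It lay at 5.08, 2.80, 3.77, 3.70 and 5.70 CPM in IgG libraries 1 to 5 and at 7.08, 8.63, 11.5, 9.70 and 5.77 CPM in anti-Ang2 libraries 1 to 5, with every anti-Ang2 library above every control (log2 fold change 1.02 ± 0.26 (SE), adjusted p = 0.0490 by edgeR). Of the 10 fits that left out 1 library, it passed only without IgG 5 or anti-Ang2 5, and its adjusted p over all 20 alternatives was 0.00172 to 0.307. It was 1.13 ± 0.40 (adjusted p = 0.267) with the melanoma sum and 0.78 ± 0.30 (adjusted p = 0.307) with the macrophage sum as a covariate. In mm10 Tnfrsf8 (ENSMUSG00000028602.12) spans chr4:145267137-145315164 (minus strand), Cd40 (ENSMUSG00000017652.16) spans chr2:165055627-165072948 (plus strand) and Card10 (ENSMUSG00000033170.14) spans chr15:78775138-78803042 (minus strand).

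**Figure D5:**
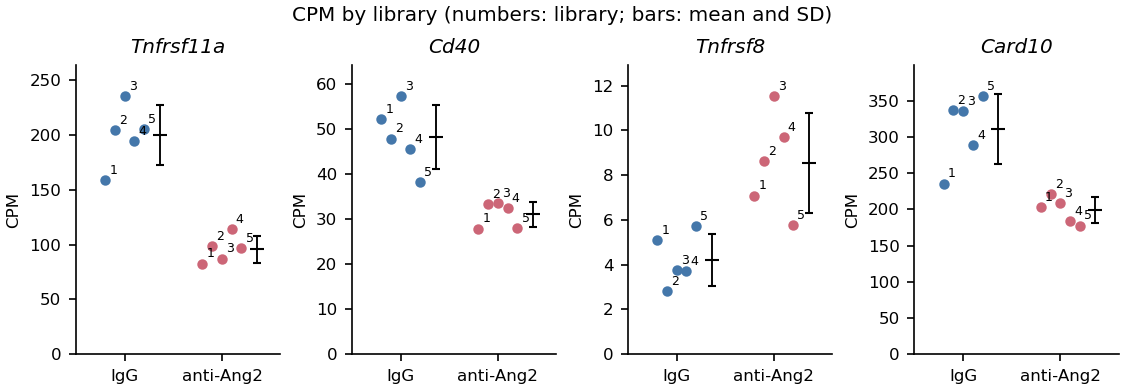
CPM (y axis) of the 4 genes of the wider pathway list that passed the test, in each IgG (blue) and anti-Ang2 library (red), with library numbers beside the points and the mean and SD of each group as black bars (n = 5). The groups do not overlap in any of the 4; Tnfrsf11a has the largest fall as a ratio of means, from 199.8 to 95.7 CPM.

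By class, 2 of the 19 other receptor genes tested fell and 1 rose by edgeR, beside 4.13% of all tested genes called. At an unadjusted p under 0.05 there were 3 (15.8%), beside 18.2% of all tested genes. DESeq2 called 2 lower and 1 higher, the same genes, where it called 11.4% of all genes to which it gave an adjusted p. Of 47 adaptor, kinase and ubiquitin genes 1 fell and 0 rose by edgeR, with 14 (29.8%) at an unadjusted p under 0.05, beside 18.2% of all tested genes. Of these DESeq2 called 4 lower (Btrc, Card10, Irak4 and Traf5) and 3 higher (Bcl10, Tnfaip8l1 and Traf4). Of 10 tested ligand genes 0 passed by edgeR and 0 by DESeq2 (1, or 10.0%, at an unadjusted p under 0.05). Of 32 tested target genes of endothelium 0 passed by edgeR and 1, Ptx3, by DESeq2, with a median log2 fold change of 0.11. At an unadjusted p under 0.05 there were 9 (28.1%), beside 18.2% of all tested genes. The following target genes were chosen after their values were seen. Icam1, an adhesion molecule for leukocytes, was at 172 to 292 CPM under IgG and 185 to 485 CPM under anti-Ang2 (log2 fold change 0.43 ± 0.25 (SE), adjusted p = 0.422 by edgeR). Vcam1 was at 4.70 to 54.8 CPM under IgG and 3.47 to 52.9 CPM under anti-Ang2 and Sele, for E-selectin, at 7.10 to 38.6 CPM under IgG and 4.65 to 11.4 CPM under anti-Ang2. The chemokine gene Ccl2 was at 90.7 to 319 CPM under IgG and 72.5 to 493 CPM under anti-Ang2, the highest being anti-Ang2 3. Ptx3, for the secreted pattern receptor pentraxin 3, was at 148 to 376 CPM under IgG and 109.6 to 172 CPM under anti-Ang2 (log2 fold change -0.86 ± 0.22 (SE), adjusted p = 0.0553 by edgeR). The 95% interval was within 2-fold for 10 of these 32 target genes, against 30 of the 33 genes described first. The median SE was 0.462 in the target genes and 0.135 in the 33, and the lists were not matched for level.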

How the data were processed

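RNA of sorted tumour LEC was sequenced in 10 libraries, 5 per treatment, 1 per mouse; the series design states that replicates are independent. Full-length cDNA came from a SMART-Seq v4 kit, per the labels; it carries no strand information. STAR, featureCounts and DESeq2 with mm10 were used, per the submitters' processing notes; versions, annotation and strand setting are not given in the sources used here. Per the file headers, the authors deposited raw counts per gene, which were the input of every test here, and FPKM, used only for levels between genes. TPM columns deposited by the authors were handled as a score, because they sum to 1047255 to 1063888 per library, and did not enter any result. The deposited baseMean is a signal and was not used. Fold changes (log2) and p-values deposited by the authors appear only where they are named. All columns with values of a sample were mapped, leaving 0 out.

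Counts were tested with edgeR 4.0.16 in R 4.3.3 (quasi-likelihood F test, two-sided, TMM, genes kept by filterByExpr at 10 counts or more and a total of at least 15; the model held only treatment). P-values were adjusted by Benjamini-Hochberg over all 16240 genes, and a gene was called at an adjusted p under 0.05. Standard errors and 95% intervals were derived from the same test. Alternatives were relative log expression factors, DESeq2 1.42.0, limma 3.58.1 (voom, with and without quality weights), no filter on low counts, each library left out, a replicate block, the marker sums as covariates, and anti-Ang2 4 and 5 or 1, 2 and 3 left out. The tests were tried on simulated data. Python 3.11.15 was used for summaries. Coordinates come from GENCODE M21 (mm10), in which all 33 genes were found by ID; promoters come from RefSeq (GRCm38.p6).

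Members and lists were chosen with earlier results of these data known. The rule for named genes covered all 33 members, with values per library for those called, for Nfkbia, Tnfaip3, Tnfrsf1a and Tnfrsf1b, and for those not called with an absolute log2 fold change of at least 0.5, and up to 12 called genes of the wider pathway list; values per library of other members were added after they were seen. Reads carry no molecular identifiers. At this depth the spread between libraries, which holds that of mice, sorting and amplification, limits precision.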

Additional observations from a re-analysis of the deposited data

Results flagged for a closer look

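In 3 of the 74 groups of 5 libraries examined (33 genes of the pathway and 4 called genes of the wider list, in each treatment), 1 library stood off from the other 4 by more than 0.71 of the range of its group, which chance gives in about 1 of 20 groups. Nfkbia was at 583 CPM in anti-Ang2 3, the other anti-Ang2 libraries being at 364 to 414 CPM. Ltbr was at 149 CPM in the same library, the others being at 134 to 137 CPM. Birc2 was at 67.5 CPM in IgG 4, the other IgG libraries being at 51.6 to 54.9 CPM.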

How the results depend on the processing

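Counts are given as higher and lower genes at an adjusted p under 0.05. They were 0 and 0 of the 33 genes, 1 and 3 of the wider list and 217 and 454 of all genes by edgeR. They became 1 and 4 of the 33 genes, 4 and 7 of the wider list and 810 and 880 of all genes by DESeq2, 0 and 1 of the 33 genes, 1 and 3 of the wider list and 262 and 530 of all genes by limma-voom and 2 and 2 of the 33 genes, 5 and 5 of the wider list and 670 and 780 of all genes with quality weights. Without the filter they were 0 and 0 of the 33 genes, 0 and 3 of the wider list and 155 and 388 of all genes, with the melanoma sum 0 and 0 of the 33 genes, 0 and 1 of the wider list and 24 and 91 of all genes, and with the macrophage sum 0 and 0 of the 33 genes, 0 and 2 of the wider list and 41 and 148 of all genes. Without anti-Ang2 4 and 5 they were 3 and 0 of the 33 genes, 2 and 5 of the wider list and 531 and 598 of all genes, and without anti-Ang2 1, 2 and 3 0 and 1 of the 33 genes, 0 and 1 of the wider list and 55 and 178 of all genes. With 1 library left out the counts ranged from 0 to 2 and 0 to 1 of the 33, 0 to 1 and 3 to 4 of the wider list, and 82 to 326 and 259 to 468 of all genes. The 2 were Nfkbib and Rela without anti-Ang2 5; the 1 was Map3k14 without IgG 1 or anti-Ang2 1 and Bcl3 without anti-Ang2 3. Without IgG 1 the higher gene of the wider list was Tnfaip8l1 in place of Tnfrsf8. Over all genes, 117 (IgG 2), 82 (IgG 3), 131 (IgG 5), 131 (anti-Ang2 1), 134 (anti-Ang2 2), 113 (anti-Ang2 3) and 326 (anti-Ang2 5) were higher and 292 (IgG 2) and 259 (IgG 3) lower when the library named was left out. The cause of these differences was not tested.

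Both groups carry the numbers 1 to 5, but their sample descriptions carry separate mouse numbers, and deviations of same-numbered libraries correlated at -0.125 to 0.113. With the replicate block the counts were 0 and 0 of the 33 genes, 0 and 3 of the wider list and 82 and 268 of all genes.

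The log2 fold changes of the 33 genes kept their sign in 18 genes under all 20 alternatives; 66 of 660 values changed sign, in 15 genes whose edgeR value was at most 0.35 in size. With voom quality weights these were Nfkbia 0.00210, Chuk -0.0597, Traf2 0.00620 and Tradd 0.0335. With the melanoma sum these were Nfkbia 0.149, Relb -0.0895, Traf2 0.153, Traf3 -0.252, Traf6 -0.191, Birc3 -0.154 and Ripk1 0.00490. Without anti-Ang2 4 and 5 these were Nfkbia 0.0178, Nfkbie 0.0555, Nfkb1 -0.0282, Rel -0.0354, Chuk -0.213, Csf1 0.188 and Tradd 0.115. With the macrophage sum these were Rel -0.143, Relb -0.0527, Traf3 -0.209, Ripk1 0.0103 and Csf1 0.0369. Without anti-Ang2 1, 2 and 3 these were Relb -0.0847, Ikbkg -0.0172, Tnfrsf1b -0.101, Traf2 0.0465, Traf3 -0.292, Traf6 -0.204 and Birc3 -0.134. With limma-voom this was Traf3 -0.0302. Without the filter this was Traf3 -0.000600. With the block this was Traf3 -0.0573. With 1 library left out, genes that changed sign ranged as follows: Nfkbia -0.148 to 0.0811, Rel -0.0919 to 0.254, Ikbkg -0.0174 to 0.117, Chuk -0.103 to 0.101, Traf2 -0.121 to 0.103, Traf3 -0.176 to 0.144, Traf6 -0.0408 to 0.120, Birc3 -0.0354 to 0.134, Csf1 -0.199 to 0.130 and Tradd -0.114 to 0.0434. The cause was not tested. Relative log expression factors changed no sign and no call of the 33.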

Other observations

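Over all tested genes with a promoter window, 12.6% (1377 of 10971) held a kB motif match. Of these, 26 were higher and 58 lower by edgeR at an adjusted p under 0.05 (6.10%), beside 4.23% of the genes without a match. The difference in shares was not tested.

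Members of the wider list with non-overlapping groups that did not pass by edgeR were Irak4, the kinase next to the Toll-like receptor adaptor (41.2 to 51.3 CPM under IgG and 29.2 to 39.6 CPM under anti-Ang2; log2 fold change -0.39 ± 0.10 (SE), adjusted p = 0.0595 by edgeR), Bcl10 (100.5 to 118 CPM under IgG and 126 to 128 CPM under anti-Ang2; log2 fold change 0.23 ± 0.06 (SE), adjusted p = 0.0733 by edgeR) and Btrc, the ubiquitin ligase subunit that recognises phosphorylated IkB (35.4 to 41.1 CPM under IgG and 29.3 to 35.1 CPM under anti-Ang2; log2 fold change -0.26 ± 0.08 (SE), adjusted p = 0.114 by edgeR). They were chosen after their values were seen. Over the tested genes of the wider list the groups did not overlap in 6.48%, near the 6.10% of all tested genes.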
